A study of Arabidopsis thaliana with 18 samples.

Results

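The cytosolic ribosomal protein genes described here are 56 nuclear genes of Arabidopsis thaliana, chosen by their AGI locus identifiers and not by any measured value. They encode 29 proteins of the large ribosomal subunit and 27 of the small subunit, and belong to 30 protein families. All 56 were found in the table of sorted cells, which lists 33560 genes, and in the table of root tips, which lists 33201 entries. The study sequenced RNA of 5-day-old seedlings in 18 samples, 3 replicates in each of 6 groups. Root tips were collected whole from Col-0 (wild type, WT) and from tcx2, a mutant in TCX2 (AT4G14770), which encodes a DNA-binding protein with CXC domains. The study's methods name the knockout allele tcx2-3 for the root tips. The other 4 groups were GFP-positive protoplasts sorted from tcx2 roots that carried CYCD6:GFP (cortex endodermis initials), FEZ:FEZ-GFP (epidermis and lateral root cap initials), TMO5:3xGFP (xylem initials) or WOX5:GFP (quiescent center). These reporter crosses used a knockdown or a knockout allele, without a statement of which group carried which, and all sorted cells were tcx2 mutants, so that genotypes could be compared only in root tips.

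The cytosolic ribosome of plants is built from ribosomal RNA and a single copy of most of its proteins. Yet each protein is encoded by a small family of paralogous genes, whose products are related but not always interchangeable. The small subunit decodes the mRNA and the large subunit joins the amino acids, and both are assembled in the nucleolus with the help of many assembly factors. Because dividing cells need new ribosomes, ribosomal protein genes are among the most abundant transcripts of the root meristem, and loss of single paralogs in Arabidopsis is known for pointed leaves, altered organ polarity or arrested embryos.

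Promoters of these genes are known for the telo box (AAACCCTA) and for site II elements (here GGCCCA or AGCCCA). Both were counted on both strands in the 250 bases before the annotated gene start. A telo box lay in 8 of the 56 member promoters (14.3%), against 1231 of 27443 promoters of nuclear protein-coding genes (4.49%). A site II element lay in 34 members (60.7%), against 5264 of all promoters (19.2%), and 23 members held at least 2 of them. Of the 23 other paralogs of these families, 10 held a telo box, 16 a site II element and 15 at least 2 site II elements. The 6 promoters printed below belong to the 3 families whose highest paralog held the largest share of the family's FPKM in WT root tips. The strong paralog (RPS8A, RPS9B, RPSaA) is printed ahead of the weak paralog (RPS8B, RPS9C, RPSaB). They were read 5′ to 3′ along the gene from the RefSeq assembly TAIR10.1, whose members' positions all overlapped those in the deposited root tip table, and capitals mark the motifs. Their positions are RPS8A (AT5G20290) chr5:6853107-6853356 (minus strand), RPS8B (AT5G59240) chr5:23903768-23904017 (minus strand), RPS9B (AT5G15200) chr5:4936430-4936679 (minus strand), RPS9C (AT5G39850) chr5:15949660-15949909 (plus strand), RPSaA (AT1G72370) chr1:27244932-27245181 (minus strand), RPSaB (AT3G04770) chr3:1311130-1311379 (minus strand).
RPS8A: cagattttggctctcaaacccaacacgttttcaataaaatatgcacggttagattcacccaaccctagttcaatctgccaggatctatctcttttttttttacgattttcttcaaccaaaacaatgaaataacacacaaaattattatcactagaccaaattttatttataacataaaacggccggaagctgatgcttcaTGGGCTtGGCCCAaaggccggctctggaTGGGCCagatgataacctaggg
RPS8B: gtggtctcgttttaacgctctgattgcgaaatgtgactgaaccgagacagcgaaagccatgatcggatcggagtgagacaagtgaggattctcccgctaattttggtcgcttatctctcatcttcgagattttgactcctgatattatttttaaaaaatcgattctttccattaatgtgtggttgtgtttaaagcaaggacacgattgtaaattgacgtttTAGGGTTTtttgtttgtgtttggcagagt
RPS9B: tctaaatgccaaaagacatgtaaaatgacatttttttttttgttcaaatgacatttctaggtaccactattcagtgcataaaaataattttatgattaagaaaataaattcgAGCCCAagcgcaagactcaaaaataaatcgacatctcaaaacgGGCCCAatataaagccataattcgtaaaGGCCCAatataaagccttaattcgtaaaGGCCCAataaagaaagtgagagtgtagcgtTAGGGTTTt
RPS9C: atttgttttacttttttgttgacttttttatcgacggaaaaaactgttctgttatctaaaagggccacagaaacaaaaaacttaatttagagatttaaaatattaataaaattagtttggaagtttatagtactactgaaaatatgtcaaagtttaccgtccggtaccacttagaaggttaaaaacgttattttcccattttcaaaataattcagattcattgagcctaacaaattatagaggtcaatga
RPSaA: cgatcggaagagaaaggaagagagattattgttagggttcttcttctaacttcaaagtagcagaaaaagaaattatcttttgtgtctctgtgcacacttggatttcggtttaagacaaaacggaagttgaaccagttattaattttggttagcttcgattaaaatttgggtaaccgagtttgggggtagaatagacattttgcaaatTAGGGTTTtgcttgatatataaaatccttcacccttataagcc
RPSaB: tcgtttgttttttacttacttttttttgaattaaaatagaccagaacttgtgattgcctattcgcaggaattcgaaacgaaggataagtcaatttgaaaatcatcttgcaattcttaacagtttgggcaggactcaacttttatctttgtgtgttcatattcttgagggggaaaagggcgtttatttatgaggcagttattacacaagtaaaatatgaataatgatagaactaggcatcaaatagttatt
RPS8A held 3 site II elements and no telo box, and RPS9B held 4 site II elements and 1 telo box. The weak RPS8B and the strong RPSaA each held 1 telo box and no site II element. RPS9C and RPSaB held neither motif. Strong and weak paralogs did not differ in a simple way across the families. A site II element was found in 21 of the 30 paralogs that were highest in WT root tips and in 15 of the 30 that were lowest, and a telo box in 6 and 9 of them. A match describes the letters of the promoter and not a bound site.

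The deposited values were FPKM, which divide fragments by transcript length and by library total and so allow paralogs to be compared within a library. In the sorted libraries 14878 to 22170 genes were above 0, and ribosomal RNA took 78.1% to 85.9% of the FPKM sum. In its own population the endogenous WOX5 was above 0 in 0 of 3 libraries, CYCD6;1 in 0, TMO5 in 1 (0.206 FPKM) and FEZ in 3 (0.347 to 2.90). Among the 9 libraries of the other populations WOX5 was above 0 in 2 (up to 1.49 FPKM), CYCD6;1 in 3 (up to 0.315), TMO5 in 6 (up to 3.75) and FEZ in 5 (up to 0.917), so that these genes did not mark the labelled populations, and FEZ reached its highest value in FEZ:FEZ-GFP while overlapping others. Summed FPKM of 5 root hair markers was 20.1 to 58.2 in CYCD6:GFP, 16.8 to 82.8 in FEZ:FEZ-GFP, 19.98 to 83.5 in TMO5:3xGFP and 26.4 to 50.97 in WOX5:GFP. All 5 were above 0 in every library. That of 4 genes of dividing cells was 0.117 to 1.97 in CYCD6:GFP, 5.14 to 17.3 in FEZ:FEZ-GFP, 1.15 to 5.79 in TMO5:3xGFP and 0.532 to 7.23 in WOX5:GFP. The sum of 3 root cap genes was 5.48 to 11.2 in TMO5:3xGFP, labelled as xylem initials, 2.18 to 8.17 in FEZ:FEZ-GFP, and at most 1.42 in CYCD6:GFP and 0.216 in WOX5:GFP. That of 5 genes of differentiated xylem was 0.816 to 11.4 in WOX5:GFP, 0.202 to 0.639 in TMO5:3xGFP and at most 1.92 in the others, and that of 5 genes of differentiated endodermis at most 2.505 in any library. Their part in the results below was not tested. In root tips the targeted gene TCX2 was at 1.29 FPKM in WT and 0.303 in tcx2, with intervals of 0.715 to 1.82 and 0.0550 to 0.550 that did not overlap.

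In root tips the comparison of genotypes asks whether loss of TCX2 was accompanied by a change in ribosomal protein mRNAs. Most members were slightly lower in tcx2 than in WT, by a few percent, and none differed beyond the intervals that the authors gave. The FPKM sum of the 56 genes was 21326 in WT and 20209 in tcx2, or 94.8% of WT, while the sum over all entries was 824230 in WT and 854210 in tcx2. Their share of the FPKM of nuclear genes other than ribosomal RNA was 2.59% in WT and 2.37% in tcx2. The median member was at 329 FPKM in WT and 309 in tcx2. On the log2(FPKM + 1) scale the median ratio of tcx2 over WT was -0.08, with members from -0.34 to 0.12, and 49 of 56 (87.5%) were below 0. Over all 17465 entries with FPKM of at least 1 in a genotype the median was 0.00, and 49.6% were below 0. The large subunit (median -0.08, 27 of 29 below 0) and the small subunit (median -0.09, 22 of 27 below 0) had similar medians.

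Among the 1632 entries with a mean of at least 100 FPKM, a limit added after the data were seen, the median ratio was 0.05 and 36.1% were below 0, and the 45 members above that limit had a median of -0.08 with 41 below 0. Each genotype had only 1 deposited value, so that these shifts carry no replicate error and could not be tested. Separate intervals between the genotypes were found for 0 of the 56 members, against 63 of 17465 entries (0.361%), and 0 members differed by more than 1.5-fold, against 2.62% of entries. Of the 1632 entries with a mean of at least 100 FPKM, which hold 45 of the members, 0 had separate intervals. At that level the count of separate intervals cannot set members apart from other entries. The half-width of a member's interval in WT was 19.1% to 36.0% of its FPKM (median 25.6%), and the lowest member, RPS11B, was at 78.3% of WT. After rescaling both genotypes to the same nuclear total, the median was -0.13 for members and -0.05 for all entries. The rescaling put 53 members and 61.3% of all entries below 0.

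The members with the lowest ratios were RPS11B, RPL3B, RPS3C, RPS18C and RPL18C, whose levels in WT ran from 28.4 to 635 FPKM. RPS11B (AT4G30800), a minor gene for a protein of the small subunit body, had a log2 ratio of -0.34, with 28.4 FPKM (interval 17.7 to 34.2) in WT against 22.3 (13.7 to 25.9) in tcx2. RPL3B (AT1G61580), the minor gene for a protein near the peptidyl transferase center, had a log2 ratio of -0.25, with 81.2 FPKM (62.3 to 99.9) in WT against 67.9 (52.4 to 83.4) in tcx2. Both pairs of intervals overlapped widely. RPS3C (AT5G35530), whose protein lines the mRNA entry channel, was at 244 and 217 FPKM (log2 ratio -0.17), RPS18C (AT4G09800) at 225 and 201 (-0.16), and RPL18C (AT5G27850) at 635 and 567 (-0.16).

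Of the 7 members above 0, the highest were short genes of the small subunit. RPS27A (AT2G45710) was at 39.98 FPKM in WT and 43.6 in tcx2 (log2 ratio 0.12), RPS28A (AT3G10090) at 37.9 and 39.9 (0.07), RPS27B (AT3G61110) at 168 and 176 (0.06) and RPS21B (AT3G53890) at 294 and 300 (0.03). RPP0A (AT2G40010), a weak gene for the base of the ribosomal stalk, was at 15.2 and 15.5 (0.02). For 6 of the 56 members (RPS27A, RPS27B, RPS28A, RPS28B, RPS28C and RPS21C) an FPKM value lay above the upper bound of its own interval in at least 1 genotype. Of all 17465 entries, 437 had a value above or below its interval. In these 6 members value and interval do not describe the same estimate, and the ratios and interval comparisons of these genes carry that limit.

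**Figure D1:**
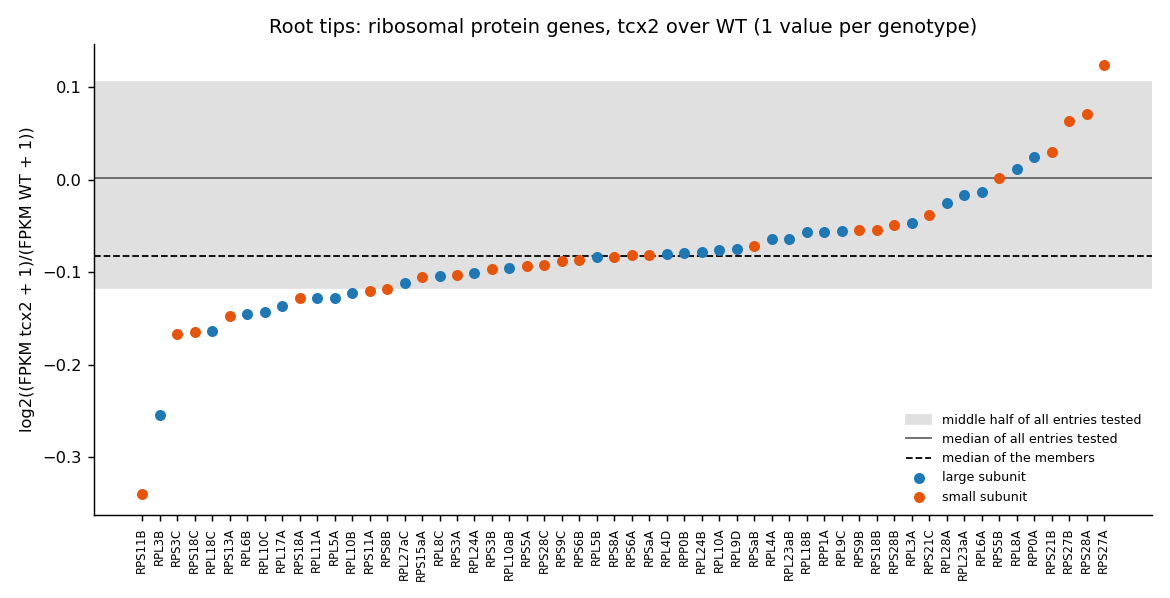
Ratio of tcx2 over WT root tips for each of the 56 genes (y axis, log2 of FPKM + 1; x axis, genes ordered by ratio; 1 value per genotype, no replicate error). The dashed line is the member median of -0.08, the solid line the median of 0.00 over 17465 entries, and the grey band their middle quartiles; 49 of 56 points lie below 0.

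Other genes of the pathway lay on the same side in root tips. The ribosome assembly list held 16 genes fixed with the design, of which 15 had an entry of their own, and all 15 were below 0 with a median of -0.18 and none with separate intervals. NUC-L1 (AT1G48920), a nucleolin of the nucleolus, was at 215 FPKM in WT and 196 in tcx2 (log2 ratio -0.13), NOP56 (AT1G56110), a core protein of the box C/D particles that guide ribosomal RNA methylation, at 106 and 94.6 (-0.16), and APUM23 (AT1G72320), a pumilio protein of ribosomal RNA processing, at 10.3 and 8.10 (-0.31). The 23 further paralogs of the members' families, of which 20 passed the level filter, had a median of -0.11 with 18 below 0. Of 224 other entries whose annotated product names a ribosomal protein, 173 were below 0 (median -0.10), a list that still holds some proteins of organelle ribosomes.

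A list of elongation factors and other translation genes was closer to the rest of the genome. Its median was -0.03, with 11 of 14 below 0. Besides translation factors it held the kinases TOR, S6K1 and S6K2 and the transcription factor TCP20. The 3 genes above 0 were TOR, S6K2 (0.13) and TCP20 (0.05), so that every elongation factor gene was below 0. EF1A-A4 (AT5G60390), an elongation factor 1-alpha gene, was at 1595 FPKM in WT and 1483 in tcx2 (log2 ratio -0.10). TOR (AT1G50030), the kinase that couples nutrients to translation, was at 6.11 and 7.43 (0.25), with intervals of 4.63 to 7.56 and 5.72 to 9.14 that overlapped.

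Within families, the dominant paralog was nearly the same gene in both genotypes. The highest paralog of WT root tips was also the highest in tcx2 in 29 of 30 families. Its share of the family's summed FPKM changed by -1.49 to 2.07 percentage points, with a median size of 0.708 points. The exception was the S28 family of the small subunit, where RPS28C (AT5G64140) was at 329 FPKM in WT and 309 in tcx2 and RPS28B (AT5G03850) at 321 and 310, a near tie in both genotypes with values above their own intervals.

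Families differed widely in how far 1 paralog dominated, from 39.0% for RPS18A (AT1G22780) to 98.7% for RPS9B in WT root tips, with a median of 58.6%. In 5 families the highest paralog held over 90% of the FPKM. RPS9B was at 724 FPKM and RPS9C at 9.28 in WT, and at 697 and 8.67 in tcx2. RPS8A was at 1119 and RPS8B at 15.8 in WT, and at 1056 and 14.5 in tcx2. These are the paralogs whose promoters are printed above. RPSaA, whose protein (P40) lies on the solvent side of the small subunit, was at 700 FPKM against 16.6 for RPSaB in WT. RPP0B (AT3G09200) was at 747, RPP0C (AT3G11250) at 53.7 and RPP0A at 15.2 FPKM, and RPL3A (AT1G43170) was at 764 against 81.2 for RPL3B.

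The same genes dominated in sorted cells. The lowest and median share over the 12 sorted libraries was 95.4% and 99.8% for RPS9B, 90.5% and 98.9% for RPS8A, 87.7% and 96.1% for RPSaA, 83.9% and 94.9% for RPP0B, and 87.5% and 92.2% for RPL3A. The highest share was the whole family in the first 4 of these, in libraries where the other paralogs were listed at 0, and 98.2% for RPL3A. No library of any population had another highest paralog in these 5 families. The weak paralogs were close to the limit of the libraries, since RPS9C was listed at 0 in 6 of 12 libraries, RPP0A in 5, RPS8B in 4 and RPSaB in 3. RPS9C and RPP0A were at 0 in all 3 CYCD6:GFP libraries and were the members that did not pass the level filter of the test.

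**Figure D2:**
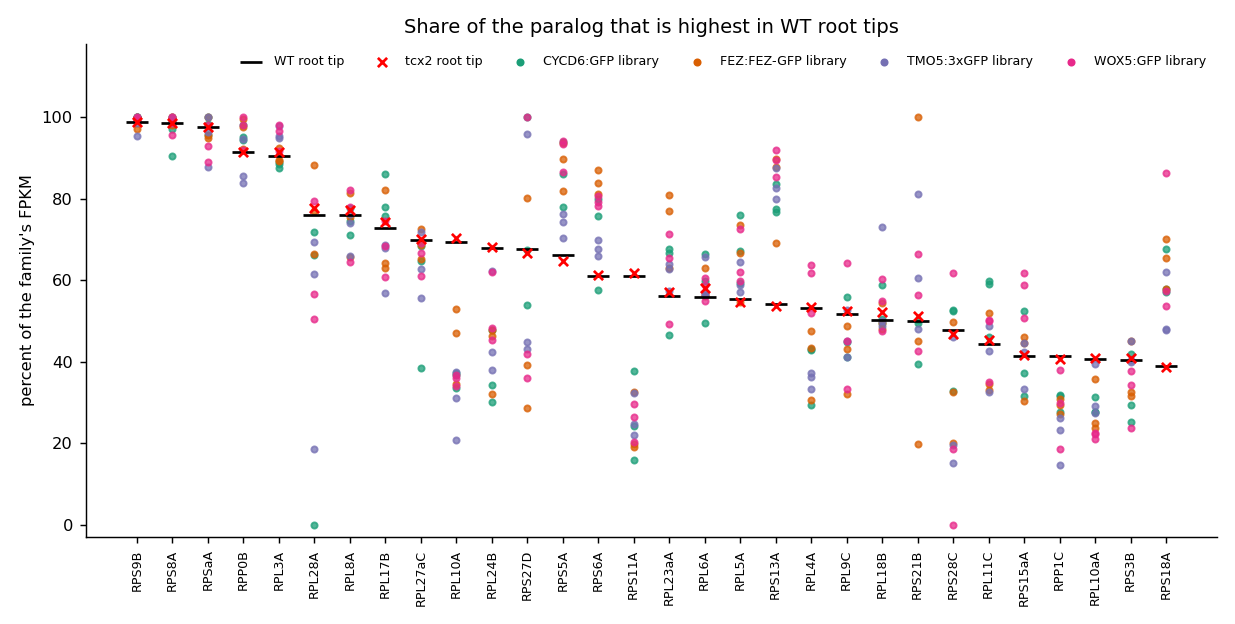
Share of the paralog that was highest in WT root tips in each of 30 families (y axis, percent of the FPKM summed over the family; x axis, that paralog). Black bars are WT and red crosses tcx2 root tips (1 value each), and dots are the 12 sorted libraries by population; RPS9B, RPS8A, RPSaA, RPP0B and RPL3A stay above 80% throughout, whereas RPS11A, RPL10A and RPL24B lie lower in all sorted libraries than in root tips.

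In 14 of 30 families the highest paralog was the same in all 12 sorted libraries, and in 13 of them it was also the highest in both root tip genotypes (RPL3A, RPL5A, RPL6A, RPL8A, RPL17B, RPP0B, RPSaA, RPS5A, RPS6A, RPS8A, RPS9B, RPS13A and RPS18A). By population means, the paralog that led in WT root tips led in all 4 populations in 20 families and in no population in 6 (L9, L10, L10a, L24, P1 and S11). Root tips and sorted cells were prepared with different kits, and only sorted cells were protoplasted, so that cell type, protoplasting and library kit cannot be told apart in any comparison between the tables.

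The clearest exchange was in the S11 family. RPS11A (AT3G48930) led root tips with 382 FPKM in WT and 351 in tcx2, ahead of RPS11C (AT5G23740) with 216 and 194 and RPS11B with 28.4 and 22.3. In sorted cells RPS11C was at 3.40, 6.97 and 10.4 FPKM in CYCD6:GFP, 15.1, 11.97 and 2.89 in FEZ:FEZ-GFP, 6.77, 11.9 and 3.15 in TMO5:3xGFP and 10.13, 4.75 and 12.02 in WOX5:GFP. RPS11A was at 0.676, 4.36 and 3.45 in CYCD6:GFP, 4.20, 3.13 and 1.39 in FEZ:FEZ-GFP, 1.90, 4.35 and 2.31 in TMO5:3xGFP and 4.74, 1.71 and 3.55 in WOX5:GFP. RPS11C was above RPS11A in each of the 12 libraries, and the share of RPS11A ran from 15.9% to 37.7% against 60.9% in WT root tips. The coding sequences of RPS11A and RPS11C were 89.0% identical with a longest shared run of 38 bases, shorter than the 100-base reads.

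A similar exchange was seen for RPL10, a protein that joins the large subunit late and is needed for its release to translation. RPL10A (AT1G14320, SAC52) was at 846 FPKM in WT and 802 in tcx2 root tips, RPL10C (AT1G66580) at 329 and 298 and RPL10B (AT1G26910) at 42.2 and 38.7. In sorted cells RPL10A was at 6.83, 15.8 and 32.3 FPKM in CYCD6:GFP, 30.1, 23.6 and 14.2 in FEZ:FEZ-GFP, 20.8, 29.3 and 19.5 in TMO5:3xGFP and 16.3, 10.5 and 19.9 in WOX5:GFP. RPL10C was at 11.3, 25.4 and 62.5 in CYCD6:GFP, 28.2, 20.5 and 25.9 in FEZ:FEZ-GFP, 45.0, 110 and 30.3 in TMO5:3xGFP and 24.8, 15.9 and 32.2 in WOX5:GFP. RPL10C was the higher gene in 10 of 12 libraries, the exceptions being FEZ:FEZ-GFP replicates 1 and 2. The genes share 88.1% of their coding bases with a longest run of 98 bases.

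In the L24 family, RPL24B (AT3G53020, STV1), which is known for translation reinitiation on mRNAs with upstream reading frames, was at 664 FPKM against 315 for RPL24A (AT2G36620) in WT root tips. In sorted cells RPL24A had a median of 34.2 FPKM (13.3 to 97.6) and RPL24B one of 31.0 (5.74 to 51.8), and RPL24A was higher in 10 of 12 libraries. Sorted populations overlapped throughout. Among families with smaller differences in root tips, RPL10aA (AT1G08360, 393 FPKM in WT) led over RPL10aB (AT2G27530, PGY1, 350) and RPL10aC (AT5G22440, 223), whereas RPL10aB led in 10 of 12 sorted libraries, with a median of 17.6 FPKM against 10.3 for RPL10aA and 9.81 for RPL10aC. RPP1C (AT5G47700, 449), RPP1A (AT1G01100, 416) and RPP1B (AT4G00810, 222), genes for the acidic stalk protein that recruits elongation factors, were at medians of 11.7, 19.5 and 10.99 FPKM in sorted cells, with RPP1A highest in 8 of 12.

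For L9, RPL9C (AT1G33140, PGY2) was at 223 FPKM in WT root tips, RPL9B (AT1G33120) at 141 and RPL9D (AT4G10450) at 67.5, and RPL9B led in 7 sorted libraries with a median of 23.4 against 18.1 for RPL9C and 3.71 for RPL9D. Reads cannot separate this pair fully, since RPL9B and RPL9C are 99.1% identical in coding sequence and share a run of 458 bases. The other pair of the 75 paralog pairs with a shared run at least as long as a read was RPL11A (AT2G42740) and RPL11B (AT3G58700, 113 bases), and the median pair was 84.4% identical with a run of 26 bases.

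Some balances differed between sorted populations, and these were noticed after the values were seen and were not tested. RPL4D (AT5G02870) was at 10.5, 31.1 and 60.3 FPKM in CYCD6:GFP, 60.6, 42.3 and 31.9 in FEZ:FEZ-GFP, 25.1, 50.9 and 23.5 in TMO5:3xGFP and 17.2, 14.4 and 31.6 in WOX5:GFP. RPL4A (AT3G09630) was at 4.397, 23.4 and 45.9 in CYCD6:GFP, 55.0, 32.3 and 14.1 in FEZ:FEZ-GFP, 14.9, 28.8 and 11.7 in TMO5:3xGFP and 30.3, 15.6 and 51.2 in WOX5:GFP. RPL4A was thus the higher gene in all 3 WOX5:GFP libraries and RPL4D in the 9 others, while both were close in WT root tips (420 and 370). In the P1 family the share of RPP1A was 36.0%, 35.8% and 35.3% in WOX5:GFP and 56.9%, 56.4% and 65.8% in TMO5:3xGFP, which did not overlap, with FEZ:FEZ-GFP at 58.5%, 55.7% and 34.6% and CYCD6:GFP at 49.3%, 38.8% and 33.6% spanning the range between them. In the S3 family RPS3B (AT3G53870, 377 FPKM in WT root tips), RPS3A (AT2G31610, 313) and RPS3C (244) were close, and RPS3A led in 8 sorted libraries, with medians of 21.02, 16.96 and 15.4 FPKM.

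The remaining families of the large subunit with at least 3 paralogs were uneven in root tips, except L18. RPL6A (AT1G18540) was at 481 FPKM and RPL6C (AT1G74050) at 180 in WT root tips, with sorted medians of 32.5 and 16.8. RPL8A (AT2G18020), near the peptidyl transferase center, was at 805 in WT against 0.0743 for RPL8B (AT3G51190), and at a sorted median of 8.96 against a gene listed at 0 in 10 of 12 libraries. RPL11C (AT4G18730) was at 306 and RPL11A at 40.5 in WT, with sorted medians of 11.5 and 0.181. RPL18B (AT3G05590, 642) and RPL18C (635) were nearly equal in WT, with sorted medians of 28.7 and 24.6, and RPL18B was the highest paralog in 6 of 12 sorted libraries.

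Among small subunit families, RPS15aA (AT1G07770) was at 314 FPKM in WT and 15.3 as the sorted median, and RPS15aC (AT2G39590) was listed at 0 in every library. RPS18A (PFL, known for pointed first leaves) was at 303 FPKM and RPS18C at 225 in WT root tips, with sorted medians of 8.01 and 4.49. RPS27D (AT5G47930) was at 434 and RPS27A at 39.98 in WT, with sorted medians of 2.78 and 0.525, and RPS28A was at 37.9 in WT with a sorted median of 0.314. In the S21 family RPS21B and RPS21C (AT5G27700) tied in WT (294 FPKM each) and led in 6 sorted libraries each. In the S13 family RPS13A (AT4G00100) was at 441 FPKM against 373 for its paralog AT3G60770 in WT root tips, and at 69.1% to 92.0% of the family in sorted libraries.

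In the sorted cells, the level of the whole group differed widely between libraries of the same population. The FPKM sum of the 56 genes was 282, 962 and 1527 in CYCD6:GFP, 1582, 1050 and 738 in FEZ:FEZ-GFP, 776, 1426 and 736 in TMO5:3xGFP and 923, 507 and 1424 in WOX5:GFP. All 4 populations overlapped. The means were 924 ± 623, 1123 ± 427, 979 ± 387 and 951 ± 459 (SD, n = 3), and the highest was 1.22 times the lowest. Replicates of CYCD6:GFP differed 5.41-fold, those of WOX5:GFP 2.81-fold, FEZ:FEZ-GFP 2.14-fold and TMO5:3xGFP 1.94-fold. Means of 3 libraries vary less than single libraries, so that these folds are not directly comparable. In CYCD6:GFP the nuclear FPKM sum ran from 40428 to 89046 and the member share of it from 0.698% to 1.71%. The cause of the spread was not tested. As a share of the FPKM of nuclear genes other than ribosomal RNA, members took 1.43% ± 0.538 in WOX5:GFP, 1.40% ± 0.352 in TMO5:3xGFP, 1.54% ± 0.309 in FEZ:FEZ-GFP and 1.33% ± 0.552 in CYCD6:GFP (SD, n = 3), with single libraries from 0.698% to 1.83%. In sorted cells fewer cells of a type and less RNA per cell cannot be told apart.

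**Figure D3:**
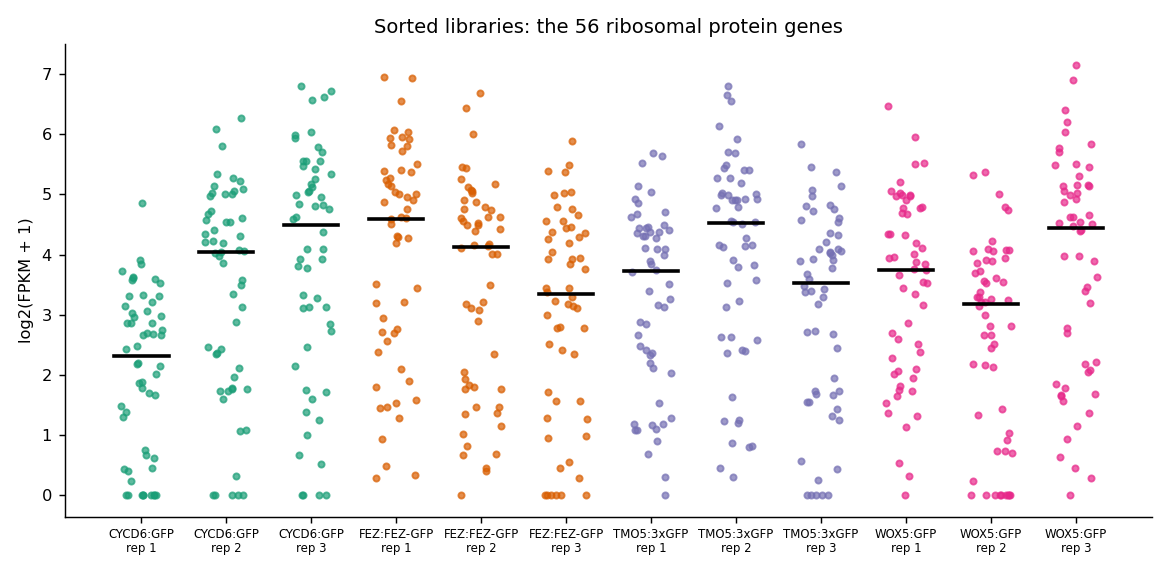
Level of each of the 56 genes in the 12 sorted libraries (y axis, log2 of FPKM + 1; x axis, libraries by population; black bars, library medians). CYCD6:GFP replicate 1 and WOX5:GFP replicate 2 sit lowest, with member medians of 3.99 and 8.04 FPKM, while each population holds a library with a median of 20.8 to 23.2 FPKM.

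Members moved together within a library. In CYCD6:GFP replicate 1, 50 of 56 members were below both other replicates, against 53.1% of all genes tested. This library was low in general. Its median over all genes tested was 0.93 on the log2(FPKM + 1) scale, against 1.20 to 1.77 in the other libraries. In WOX5:GFP replicate 2, 46 members were below both other replicates, against 34.3% of all genes tested, and in FEZ:FEZ-GFP replicate 3, 43 members, against 49.4%. In the other direction, 47 members were above both other replicates in FEZ:FEZ-GFP replicate 1 (41.3% of genes tested), 43 in TMO5:3xGFP replicate 2 (59.9%), 42 in CYCD6:GFP replicate 3 (64.0%) and 39 in WOX5:GFP replicate 3 (48.5%). The median SD between replicates on the log2(FPKM + 1) scale was 0.78 for the 54 members tested and 0.55 for all 9979 genes. The median SD of the 4 population means, which vary less than single libraries, was 0.29 for members and 0.36 for all genes.

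**Figure D4:**
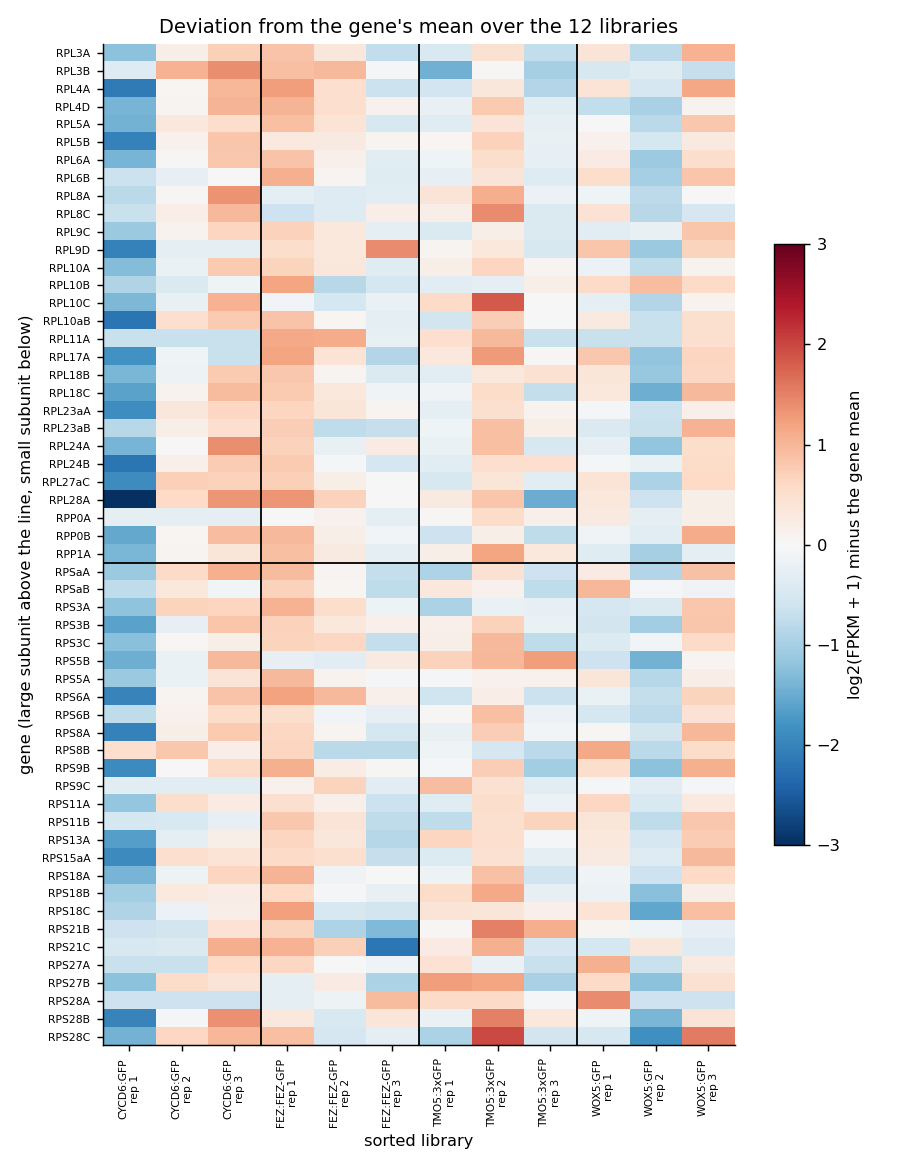
Deviation of each gene from its mean over the 12 sorted libraries (color, log2 of FPKM + 1; rows, the 56 genes with the large subunit above the line; columns, libraries grouped by population). CYCD6:GFP replicate 1 is low for most rows, with 50 of 56 genes below both other replicates, against 53.1% of all genes tested. Columns of the same population differ in color.

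Correspondingly, the test found no member that differed among the populations. In limma, with Benjamini-Hochberg adjustment over 9979 genes, the overall F-test called 0 of 54 members at an adjusted p under 0.05, against 427 genes (4.28%), and 3 members had an unadjusted p under 0.05, against 18.1% of all genes. With array weights, which down-weight noisy libraries, 6 of 54 members were called, against 39.9% of all genes. The weight of CYCD6:GFP replicate 2 was 5.65, against 0.533 and 0.288 for replicates 1 and 3. That of TMO5:3xGFP replicate 1 was 4.46, against 0.579 and 0.691 for replicates 2 and 3. The weighted means of these populations thus leaned on 1 library each. With libraries centered on their medians 1 was called, RPL3B, against 4.6%. The median member difference from the mean of the other populations was -0.33 in CYCD6:GFP (8 of 54 above 0; median of all genes -0.10), 0.24 in FEZ:FEZ-GFP (42 above 0; -0.03), 0.12 in TMO5:3xGFP (33 above 0; 0.14) and -0.06 in WOX5:GFP (23 above 0; -0.01). Of all 9979 genes tested, 4059, 4640, 5926 and 4918 were above 0 in the same order of populations. For TMO5:3xGFP the share of members above 0 was close to that of all genes. The SD of the median member difference between replicates was 1.03, 0.52, 0.49 and 0.67, larger than each of the median differences. The sign turned with a single library, to 0.34 for CYCD6:GFP without its replicate 1, to -0.04 for FEZ:FEZ-GFP without its replicate 1 and to -0.15 for TMO5:3xGFP without its replicate 2. For WOX5:GFP it was 0.32 without its replicate 2, and for TMO5:3xGFP -0.10 without CYCD6:GFP replicate 1 and -0.00 without WOX5:GFP replicate 2. The WOX5:GFP median was also above 0, at 0.03 to 0.10, without CYCD6:GFP replicate 2 or 3, FEZ:FEZ-GFP replicate 1 or TMO5:3xGFP replicate 2.

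In the comparisons of each population with the mean of the others (limma, adjusted p under 0.05 and a fold over 2), 0 members were called in any population. In CYCD6:GFP 0 members were higher (0.0% of all genes) and 0 lower (0.2%), with 2 past an unadjusted p of 0.05 and the same fold in either direction (4.72% of all genes). In FEZ:FEZ-GFP 0 were higher (0.22%) and 0 lower (0.02%), with 1 past the unadjusted limit (3.08%). In TMO5:3xGFP 0 were higher (4.47%) and 0 lower (1.05%), with 4 past the unadjusted limit (11.5%), and in WOX5:GFP 0 were higher (0.351%) and 0 lower (0.451%), with 0 past it (5.9%). With array weights 1 member was called higher (2.0% of all genes) and 1 lower (7.19%) in CYCD6:GFP, and 1 higher (9.42%) and 3 lower (4.87%) in TMO5:3xGFP. With median centering 1 was lower in TMO5:3xGFP (3.19%).

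RPL3B had the smallest adjusted p of the overall test among members. It was at 3.43, 10.9 and 14.3 FPKM in CYCD6:GFP, 9.83, 10.3 and 4.68 in FEZ:FEZ-GFP, 1.11, 4.94 and 1.91 in TMO5:3xGFP and 3.16, 3.51 and 2.58 in WOX5:GFP. The TMO5:3xGFP and WOX5:GFP libraries were low, and TMO5:3xGFP overlapped every other population. Its overall F-test in limma gave an adjusted p of 0.161, and its difference in TMO5:3xGFP was -1.07 ± 0.43 on the log2 scale (SE, adjusted p = 0.158). After median centering the difference was -1.24 (limma, adjusted p = 0.0383). With array weights it was -1.66 (limma, adjusted p = 0.000294), and the difference of RPL3B in CYCD6:GFP was 1.25 (adjusted p = 0.00396). In TMO5:3xGFP these weights leaned on replicate 1, where RPL3B was at 1.11 FPKM. The dominant RPL3A, at 27.99 to 140 FPKM, did not share this order, and had a high and a low library in each population.

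RPS5B (AT2G37270), the weaker gene of the S5 family, had the smallest adjusted p of the comparisons of single populations. It was at 0.590, 2.88 and 7.66 FPKM in CYCD6:GFP, 2.74, 2.55 and 4.33 in FEZ:FEZ-GFP, 6.16, 7.75 and 9.51 in TMO5:3xGFP and 1.88, 0.663 and 3.64 in WOX5:GFP. The TMO5:3xGFP libraries were above all others except CYCD6:GFP replicate 3. The limma difference in TMO5:3xGFP was 1.30 ± 0.44 (SE, adjusted p = 0.0920), and it was 1.503 (adjusted p = 0.0218) without CYCD6:GFP replicate 3, where 6.34% of all genes were called higher. With array weights it was 1.16 (limma, adjusted p = 0.00415). RPS5A (AT3G11940), the paralog required for cell division in the embryo, was at 19.7, 22.4 and 22.7 FPKM in TMO5:3xGFP and 8.95 to 41.5 elsewhere, so that the order of RPS5B was not that of the family.

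RPL11A, whose protein binds the 5S ribosomal RNA with RPL5, had no value above 0 in CYCD6:GFP. The FEZ:FEZ-GFP libraries held 2.49, 2.42 and 0.363 FPKM, the TMO5:3xGFP libraries 1.25, 2.10 and 0, and the WOX5:GFP libraries 0, 0 and 1.21, so that FEZ:FEZ-GFP was separate from CYCD6:GFP and the other pairs of populations overlapped. In limma its overall F-test gave an adjusted p of 0.256, and one of 0.00392 with array weights, where its difference in CYCD6:GFP was -1.03 (adjusted p = 0.00719). At this level a listed 0 is not absence. RPS28A was also at 0 in all 3 CYCD6:GFP libraries, and at 0.254 to 1.96 in FEZ:FEZ-GFP, 0.490 to 1.28 in TMO5:3xGFP and 0 to 3.06 in WOX5:GFP. With array weights RPS3A, RPS8B and RPS28A were called as well by the overall test, and RPS3A and RPSaA were called lower in TMO5:3xGFP.

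The 5 members with the highest mean over the 12 sorted libraries were RPL3A, RPS8A, RPS6A, RPL24A and RPP0B. RPS8A was at 14.0, 67.3 and 104 FPKM in CYCD6:GFP, 92.4, 63.5 and 40.8 in FEZ:FEZ-GFP, 50.7, 99.9 and 56.3 in TMO5:3xGFP and 61.3, 40.2 and 119 in WOX5:GFP. RPS6A (AT4G31700), a target of the S6 kinase downstream of TOR, was at 12.2, 55.0 and 94.4 in CYCD6:GFP, 121, 102 and 58.1 in FEZ:FEZ-GFP, 34.1, 59.5 and 32.8 in TMO5:3xGFP and 44.7, 31.3 and 83.2 in WOX5:GFP. The populations overlapped for both. RPL3A, RPL24A and RPP0B had means of 76.0, 42.5 and 37.6 FPKM. The 5 members with the lowest means were RPP0A (mean 0.225), RPS9C (0.339), RPS27A (0.718), RPS28A (0.725) and RPSaB (0.804).

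Other genes of the pathway gave few calls in sorted cells. In limma the overall test called 2 of 197 other annotated ribosomal protein genes, against 4.28% of all genes. It called 0 of 20 further paralogs, 0 of 15 assembly genes and 0 of 13 genes of the translation list. An unadjusted p under 0.05 was found for 19 of the 197 genes, against 18.1% of all genes. In the other lists, in the order given, 0, 3 and 0 genes had one. In TMO5:3xGFP 5 of the 197 were called higher, against 4.47% of all genes. The assembly genes had a median difference of 0.60 in TMO5:3xGFP, with 13 of 15 above 0, and of -0.59 in CYCD6:GFP, with 2 of 15 above 0, while the medians of all genes were 0.14 and -0.10. Of all 9979 genes, 5926 were above 0 in TMO5:3xGFP and 4059 in CYCD6:GFP.

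Members differed in how their sorted level stood to the root tip level. Mean sorted FPKM was 0.849% of the tcx2 root tip FPKM for RPS11A, 0.874% for RPS18B (AT1G34030) and 1.00% for RPS27B, and 14.5% for RPL24A, 12.1% for RPL10C and 10.3% for RPL3A. Short genes stood lower. The median was 3.38% for the 28 members with annotated transcripts under 1095 bases and 5.62% for the 28 others, with a Spearman correlation of 0.47 between length and this ratio across the 56 genes, which share their libraries and are not replicates. Over 16197 nuclear genes the corresponding values were 3.80%, 5.97% and 0.22. The tables were normalized separately and the kits differ, so that these percentages describe the tables and not the cells.

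**Figure D5:**
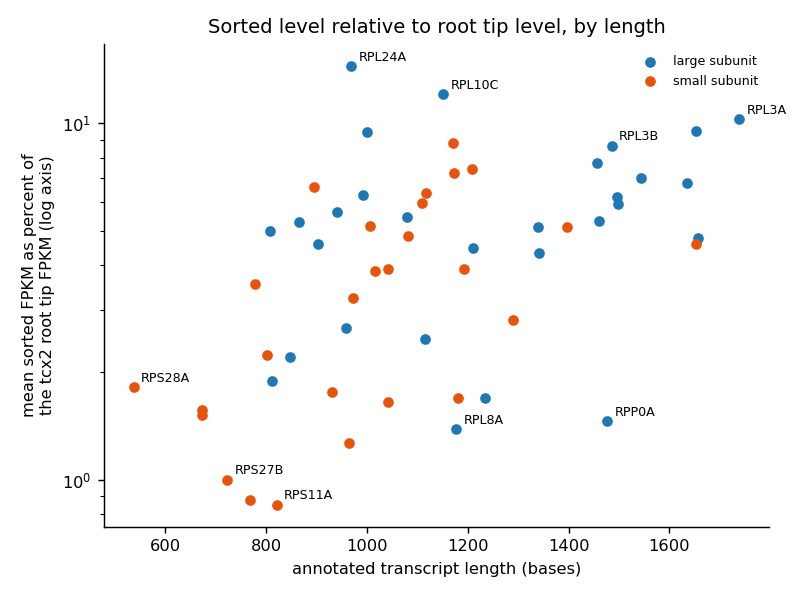
Mean FPKM over the 12 sorted libraries as percent of the tcx2 root tip FPKM (y axis, log scale) against annotated transcript length in bases (x axis) for the 56 genes, colored by subunit. RPL24A (14.5%) and RPL10C (12.1%) stand highest, and RPS11A (0.849%) and RPS27B (1.00%) are among the lowest.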

How the data were processed

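RNA-seq reads (100-base single-end) were processed by the authors with Bowtie and the Tuxedo tools, and the submitters' processing notes name Bowtie, Bowtie2, Cufflinks, edgeR and TAIR10; versions are not given in the sources used here. The deposited values were FPKM: 12 sorted libraries with 1 value each, and 1 value per root tip genotype with the authors' interval of unstated level. Read depth is unknown. Sorted genes were kept (9979) where 3 or more libraries reached 1 FPKM, and were fitted on log2(FPKM + 1) in R 4.3.3 with limma 3.58.1, with moderated two-sided tests and Benjamini-Hochberg adjustment. The fit was tested on simulated data. The log scale understates changes of low genes. The study's methods describe the sorted replicates as biological. Root tips were described, not tested; 333 merged entries hold no member. Promoters and coding sequences came from RefSeq TAIR10.1. Family letters follow common Arabidopsis naming, and 17 members overlap another annotated gene. The members and lists were chosen with earlier results of these data known. Values were given for called genes, the highest and lowest paralogs of families of 3 or more, the 5 extremes of sorted level and root tip ratio, members at 0 in a population, and families whose leading paralog differed; 1 gene under this rule is not reported here. Pseudocount, filter, scaling, weights, block and single libraries were varied.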

Additional observations from a re-analysis of the deposited data

How the results depend on the processing

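With 3 samples per group, depth unknown and 1 value per root tip genotype, small shifts of this gene group could not be resolved. Of 296 alternative values, 276 moved by less than the limit set, which was 1 SD between replicates for medians and shares of sorted libraries, 1.5 times for counts, and in root tips 50% for the median and 1.1 times for shares. The first limit is wide, and within it the median member difference changed sign in all 4 populations, in TMO5:3xGFP also with median centering (-0.05) and array weights (-0.11). Array weights gave 6 members by the overall test, 1 higher and 1 lower in CYCD6:GFP, and 1 higher and 3 lower in TMO5:3xGFP; median centering gave 1 by the overall test and 1 lower in TMO5:3xGFP. The cause was not tested. Leaving out single libraries gave 0 to 1 members higher in TMO5:3xGFP (RPS5B, without CYCD6:GFP replicate 3) and 0 in every other count of called members. It moved the median member difference between -0.75 and 0.34 in CYCD6:GFP, -0.04 and 0.56 in FEZ:FEZ-GFP, -0.15 and 0.30 in TMO5:3xGFP and -0.29 and 0.32 in WOX5:GFP, and the families with a constant highest paralog between 14 and 15.

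A replicate block gave 0 members by the overall test and the same medians (-0.33, 0.24, 0.12 and -0.06). Of same-numbered pairs of libraries, 2 of 18 had correlated deviations over 0.1 (range -0.19 to 0.17). Of pairs with different numbers, 2 of 36 did (range -0.23 to 0.15). Pairing by number was thus not apparent, though such correlations cannot exclude it.

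By population means 26 of 30 families had the same highest paralog in all 4 populations, and the cause was not tested. Rescaling to the nuclear total gave a root tip median of -0.13. Taken over all listed genes, the member share was 0.148% in WOX5:GFP, 0.164% in TMO5:3xGFP, 0.148% in FEZ:FEZ-GFP and 0.140% in CYCD6:GFP, because ribosomal RNA enters the sum. Without the 50 highest nuclear genes it was 2.32%, 2.22%, 2.85% and 2.22% in the same order, and 2.96% in WT and 2.74% in tcx2 root tips, because the sum is smaller.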
